A study of Macaca mulatta with 24 samples.

Results

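The genes described here are 10 genes of the transforming growth factor beta (TGF-beta), activin and bone morphogenetic protein (BMP) pathways. They are the ligand genes TGFB1, TGFB2, TGFB3 and BMP4, the activin subunit genes INHBA and INHBB, the receptor genes TGFBR1 and TGFBR2, the secreted BMP inhibitor GREM1 and the TGF-beta target PMEPA1. Each was matched by symbol to an Ensembl identifier in the table of counts. Of the 10 genes, 8 were matched, each to 1 of the 32386 genes in the table, and all 8 had enough counts to be tested. INHBA and INHBB were not matched to an identifier, so activin subunits were not analysed here.

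The samples were omental white adipose tissue (WAT), a visceral fat depot, from 24 female rhesus macaques in 4 groups of 6, with 1 RNA-seq library per animal. All animals carried implants for 3 years, and the tissue was taken by biopsy in year 3. The labels give every animal an age of 4 years, while the methods of the study give a higher age at biopsy, so age was not used here. Control animals (*C*) had cholesterol implants and ate standard chow. The testosterone animals (*T*) had testosterone implants and chow, the *WSD* animals had cholesterol implants and a high-fat Western-style diet, and the *T* + *WSD* animals had both testosterone implants and that diet. Implants began before puberty and raised testosterone mildly, so the *T* and *T* + *WSD* groups stand for young females with mild hyperandrogenemia.

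TGF-beta family ligands are secreted as dimers and bind pairs of type I and type II serine/threonine kinase receptors, which phosphorylate SMAD proteins that then enter the nucleus with SMAD4. TGF-betas are stored in the matrix in a latent form and must be released before they act, whereas BMPs are held back by secreted inhibitors such as gremlin. In fat, TGF-beta and activin are known for restraining the formation of adipocytes and for driving fibrosis, BMP4 is known for committing precursor cells to the adipocyte lineage, and TGF-beta is known to act on mesothelial cells that cover the omentum.

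Levels are given as CPM, the counts of a gene per 1000000 counts of its library after TMM normalization of library sizes. CPM values are not corrected for gene length and so are compared between animals, not between genes. Where a marker is named as the largest in a summed level, it is the largest by CPM. Between 6899185 and 28270776 counts were assigned to genes per library. The lowest count of any of these genes but GREM1 in an animal was 56, for TGFB1 in a *T* + *WSD* animal, and the lowest for GREM1 was 18, in a *T* animal. The 8 libraries in which ENSMMUG00000038258 took over 5% of counts were *C* 1 and 2, *T* 13 and 14, *WSD* 19 and 20, and *T* + *WSD* 7 and 8, and some results are also given within these 8 and within the other 16. That gene took from 9.92% to 54.7% of the counts in the 8 libraries, and without it the smallest, *T* + *WSD* 8, held 3125930 counts. The fat label was checked against adipocyte markers, of which 8 of 9 were found and none was at 0 in any animal. Their summed level ran from 3343 CPM in *C* 1, beside 11814 CPM in the next lowest animal, to 31692 CPM in a *WSD* animal, of which lipoprotein lipase (LPL), the largest, made up 30.2% to 36.1% by group.

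Differences are log2 fold changes from edgeR with their standard error (SE), in 1 fit to all 24 animals. A gene was called when the p adjusted over 15207 tested genes was under 0.05 and the fold change was over 1.5. The p values measure the spread between animals of a group. The comparisons with *C* share the same 6 control animals and are not independent of each other.

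In *T* + *WSD* against *C*, which shows the joint effect of hormone and diet, edgeR called 2 of the 8 genes, both lower, and 0 higher. These were the ligand genes BMP4 and TGFB2, and DESeq2 called 2 lower and 1 higher (PMEPA1). Over all genes edgeR called 10.01%, 4.72% higher and 5.29% lower. At an unadjusted p under 0.05, 3 of the 8 were lower (BMP4, TGFB2 and TGFB3) and 2 higher (TGFBR2 and PMEPA1), beside 32.1% of all genes in either direction. The median log2 fold change of the 8 genes was 0.08, beside -0.04 over all genes tested. No test of these 8 genes as a list was made.

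TGFB1 (ENSMMUG00000008142), the most widely expressed TGF-beta ligand gene in many tissues, had lowest, median and highest levels of 8.94, 19.9 and 26.2 CPM in *C*. The levels were 10.2, 16.9 and 31.5 CPM in *T*, 13.8, 16.2 and 24.8 CPM in *WSD*, and 15.8, 20.03 and 23.5 CPM in *T* + *WSD*. All groups overlapped, and the lowest animal was *C* 1. The log2 fold change in *T* + *WSD* against *C* was 0.13 ± 0.27 (SE), with an interval of -0.42 to 0.69 and an adjusted p of 0.784, and no *T* + *WSD* animal lay outside the range of *C*.

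TGFB2 (ENSMMUG00000004071), a second TGF-beta ligand gene, had lowest, median and highest levels of 32.8, 45.2 and 55.2 CPM in *C* and 23.1, 35.8 and 43.1 CPM in *T*. The levels were 19.1, 31.8 and 52.0 CPM in *WSD* and 21.7, 25.1 and 36.9 CPM in *T* + *WSD*. A single *T* + *WSD* animal reached into the range of *C*, while *T* and *WSD* overlapped *C* more widely. TGFB2 fell by 0.70 ± 0.23 on the log2 scale (SE) in *T* + *WSD* against *C*, with an adjusted p of 0.0357 and 5 of 6 *T* + *WSD* animals below every *C* animal. The difference of mean log2 CPM was -0.68 within the 8 libraries (2 animals per group) and -0.71 within the other 16 (4 per group).

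The call of TGFB2 depended on single animals. Its adjusted p was 0.0970 without *C* 1, 0.0612 without *C* 3 and 0.0584 without *C* 4. It was 0.0754, 0.0733, 0.0702 and 0.0636 without *T* + *WSD* 7, 9, 10 and 11, in that order. The log2 fold change stayed between -0.81 and -0.61 over the 12 fits that each left out 1 animal of the compared groups. With no filter on low counts the adjusted p was 0.0514, and over the alternatives tried it ran from 0.0131 to 0.9995.

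TGFB3 (ENSMMUG00000012069), the remaining TGF-beta ligand gene, had lowest, median and highest levels of 25.8, 29.4 and 45.7 CPM in *C* and 22.8, 30.0 and 50.4 CPM in *T*. The levels were 20.6, 25.9 and 35.5 CPM in *WSD* and 15.4, 20.8 and 28.7 CPM in *T* + *WSD*. *C* 6 stood above the other controls, and 1 *T* + *WSD* animal overlapped the controls. A log2 fold change of -0.55 ± 0.20 (SE) in *T* + *WSD* against *C* was not called, with an adjusted p of 0.0539 and 5 of 6 animals below every *C* animal. It was called without *C* 4 (-0.61, adjusted p 0.0494) and without *T* + *WSD* 9 (-0.66, adjusted p 0.0371). The difference of mean log2 CPM was -0.61 within the 8 libraries and -0.54 within the other 16.

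BMP4 (ENSMMUG00000000429), a BMP ligand gene, had lowest, median and highest levels of 31.8, 37.1 and 72.1 CPM in *C* and 21.3, 28.04 and 31.7 CPM in *T*. The levels were 24.1, 28.6 and 44.6 CPM in *WSD* and 21.7, 26.6 and 31.6 CPM in *T* + *WSD*. Every *T* and every *T* + *WSD* animal was below every control, *WSD* overlapped *C*, and *C* 1 stood above all other animals. BMP4 fell by 0.66 ± 0.19 on the log2 scale (SE) in *T* + *WSD* against *C*, with an adjusted p of 0.0186 and 6 of 6 animals below every *C* animal. Groups that did not overlap were found for 7.61% of all genes in this comparison.

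The BMP4 call depended on *C* 1, as did part of the size of the difference. Without that animal the log2 fold change was -0.43 with an adjusted p of 0.0717, and calls over all genes numbered 900, beside 1522. BMP4 stayed called in each of the other 11 fits that left out 1 animal. The difference of mean log2 CPM was -1.06 within the 8 libraries (2 animals per group), which include *C* 1, and -0.40 within the other 16 (4 per group). In a fit to those 16 alone it was -0.38 ± 0.16 (SE) with an adjusted p of 0.191, and over the alternatives tried the adjusted p ran from 0.00926 to 0.9995.

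**Figure D1:**
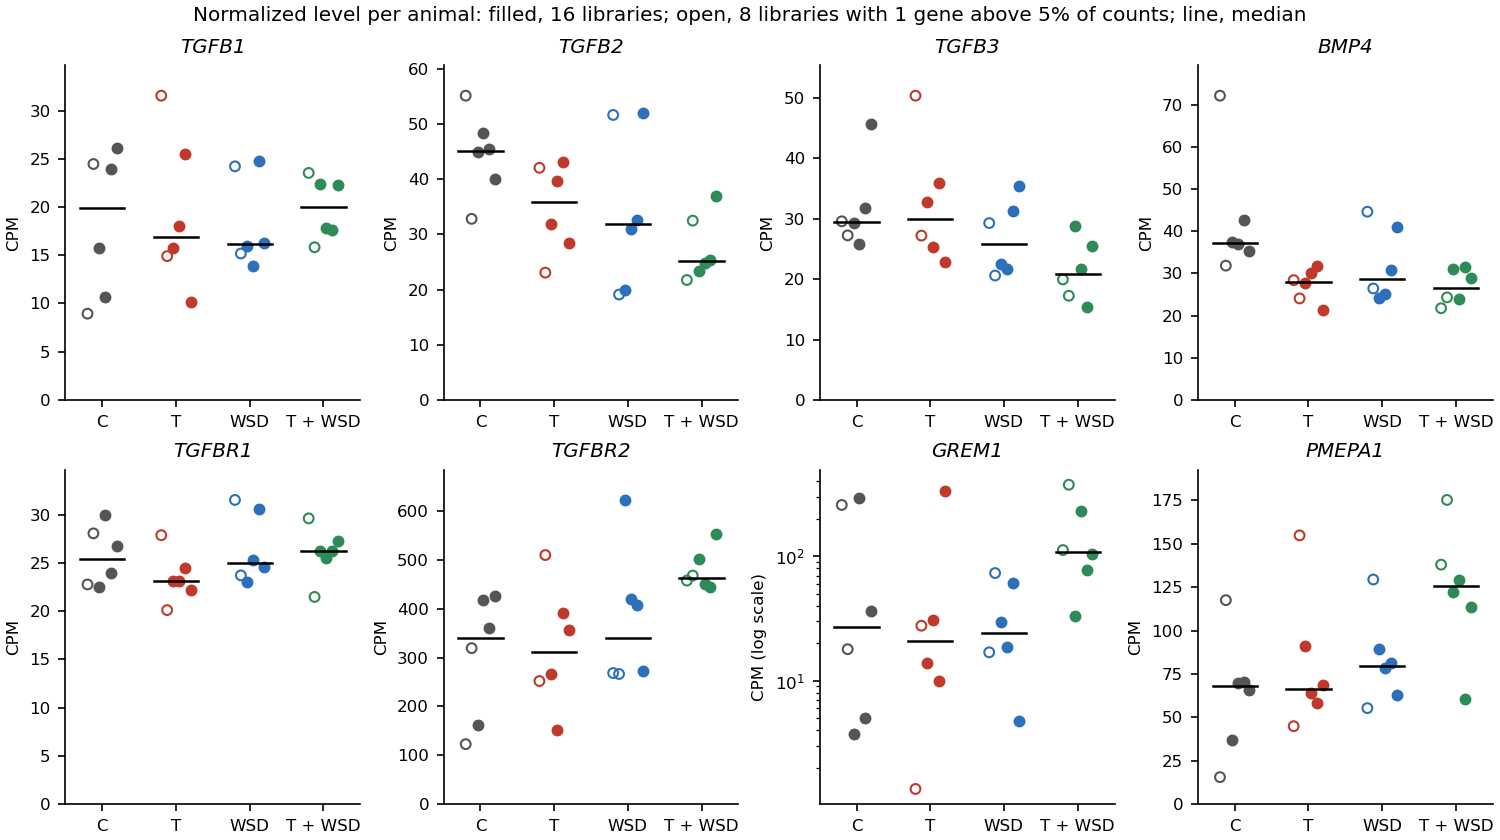
Level of each of the 8 genes in every animal, in CPM (vertical axes from 0, except GREM1 on a log axis), by group, where each point is 1 animal, open points are the 8 libraries in which ENSMMUG00000038258 took over 5% of counts, and lines are group medians. BMP4 in *T* + *WSD* reaches 31.6 CPM, below the lowest *C* animal at 31.8 CPM, while GREM1 spans 3.71 to 293 CPM in *C* alone.

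TGFBR1 (ENSMMUG00000001304), the type I receptor gene for TGF-beta, had lowest, median and highest levels of 22.5, 25.4 and 30.0 CPM in *C* and 20.1, 23.1 and 27.9 CPM in *T*. The levels were 23.1, 25.0 and 31.5 CPM in *WSD* and 21.5, 26.2 and 29.6 CPM in *T* + *WSD*. The 4 groups overlapped throughout, and within each group the highest animal was at most 1.39 times the lowest. For *T* + *WSD* against *C* its log2 fold change was 0.03 ± 0.10 (SE), with an interval of -0.18 to 0.23 and an adjusted p of 0.898, and 1 of 6 *T* + *WSD* animals lay outside the range of *C*. Without *T* + *WSD* 7 it was at -0.013.

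TGFBR2 (ENSMMUG00000010031), the type II receptor gene that binds the ligand first, had lowest, median and highest levels of 123, 340 and 426 CPM in *C* and 151, 311 and 510 CPM in *T*. The levels were 266, 340 and 623 CPM in *WSD* and 444, 463 and 553 CPM in *T* + *WSD*. All 6 *T* + *WSD* animals were above every control and close to each other, beside 7.61% of all genes without overlap between these groups. In contrast, *T* and *WSD* overlapped *C*. Against *C* its log2 fold change in *T* + *WSD* was 0.67 ± 0.29 (SE), with an interval of 0.06 to 1.28 and an adjusted p of 0.118, so TGFBR2 was not called. The difference of mean log2 CPM was 1.22 within the 8 libraries and 0.60 within the other 16.

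GREM1 (ENSMMUG00000001810) encodes gremlin, which binds BMPs outside the cell and blocks them. Its lowest, median and highest levels were 3.71, 27.2 and 293 CPM in *C*, 1.35, 20.8 and 337 CPM in *T*, 4.70, 24.3 and 73.3 CPM in *WSD*, and 33.0, 108 and 376 CPM in *T* + *WSD*. Single animals stood far above their groups, *C* 1 and *C* 4 among the controls and *T* 18 among the testosterone animals, and every *T* + *WSD* animal was above the medians of the other 3 groups. Against *C* its log2 fold change in *T* + *WSD* was 0.59 ± 1.06 (SE), with an adjusted p of 0.751 and 1 of 6 animals above every *C* animal. Against *WSD* it was 2.19 ± 1.10 (SE), with an adjusted p of 0.273 and 5 of 6 animals above every *WSD* animal. The spread between animals of a group left both intervals wide, -1.59 to 2.78 and -0.10 to 4.48. Against *C* the difference of mean log2 CPM was 1.59 within the 8 libraries and 2.05 within the other 16, whereas the edgeR fit to those 16 gave a log2 fold change of 0.42. Over the alternatives the log2 fold change against *C* ran from 0.42 to 1.68, and without 1 animal from 0.15 (without *T* + *WSD* 8) to 1.26 (without *C* 4).

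PMEPA1 (ENSMMUG00000022589) is switched on by TGF-beta through SMAD3, and its protein in turn holds that signal back. Its lowest, median and highest levels were 15.6, 67.9 and 118 CPM in *C* and 44.9, 66.6 and 155 CPM in *T*. The levels were 55.3, 79.7 and 129 CPM in *WSD* and 60.6, 126 and 175 CPM in *T* + *WSD*. *C* 1 was the lowest animal of all, *T* + *WSD* 11 was the lowest of its group, and the groups overlapped. Its log2 fold change in *T* + *WSD* against *C* was 0.98 ± 0.36 (SE), with an interval of 0.24 to 1.72 and an adjusted p of 0.0614, and 4 of 6 animals were above every *C* animal.

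PMEPA1 was thus not called by edgeR, but DESeq2 called it (0.998, adjusted p 0.0330). It was also called without *C* 2 (1.27, adjusted p 0.0204) and without *T* + *WSD* 11 (1.12, adjusted p 0.0403). DESeq2 called 10.9% of the genes to which it gave an adjusted p. Over the alternatives tried, the fits without 1 animal included, the adjusted p of PMEPA1 ran from 0.0204 to 0.9995. The difference of mean log2 CPM was 1.86 within the 8 libraries and 0.80 within the other 16.

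The diet alone was compared in *WSD* against *C*. edgeR called 0 of the 8 genes there, beside 0% of all genes. DESeq2 also called 0 of the 8, beside 1.58% of the genes to which it gave an adjusted p, and BMP4 was the 1 gene with an unadjusted p under 0.05, beside 18.5% of all genes. None of the 8 was without overlap between these groups, as 0.401% of all genes were. BMP4 had a log2 fold change of -0.42 ± 0.18 (SE), an adjusted p of 0.227 and 4 of 6 animals below every *C* animal. Without 1 animal it ran from -0.54 to -0.21, the latter without *C* 1. TGFB2 was at -0.37 ± 0.22 (SE) with an adjusted p of 0.371 and 4 of 6 animals below every *C* animal. TGFB3 was at -0.24 ± 0.19, TGFBR2 at 0.32 ± 0.29, PMEPA1 at 0.41 ± 0.35 and GREM1 at -1.60 ± 1.08 (log2 fold changes, SE), with adjusted p values from 0.432 to 0.575. In these 4 genes 3 of 6 *WSD* animals were below every control for TGFB3, 1 was above for TGFBR2, 1 above for PMEPA1, and 0 lay outside the controls for GREM1. Without 1 animal TGFB3 ran from -0.34 to -0.10, TGFBR2 from 0.12 to 0.45, PMEPA1 from 0.21 to 0.69 and GREM1 from -1.96 to -0.93. Over the other alternatives BMP4 ran from -0.45 to -0.23, TGFB2 from -0.41 to -0.27 and TGFB3 from -0.27 to -0.16. TGFBR2 ran from 0.12 to 0.34, PMEPA1 from 0.079 to 0.41 and GREM1 from -1.61 to -1.08.

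Testosterone alone was compared in *T* against *C*, where edgeR and DESeq2 each called 0 of the 8 genes, beside 0% of all genes by edgeR and 0.0290% by DESeq2. BMP4 was again the 1 gene with an unadjusted p under 0.05, beside 8.63% of all genes. Its log2 fold change was -0.65 ± 0.18 (SE) with an adjusted p of 0.519, and all 6 *T* animals were below every control, beside 0.263% of all genes without overlap in this comparison. The gap was narrow, with the highest *T* animal at 31.7 CPM and the lowest control, *C* 2, at 31.8 CPM (194 counts). Without 1 animal the log2 fold change of BMP4 ran from -0.71 to -0.44. Within the 8 libraries its difference of mean log2 CPM was -0.87 and within the other 16 it was -0.47. TGFB2 was at -0.36 ± 0.22 (SE), with an adjusted p of 0.653 and 3 of 6 animals below every control.

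The other genes were nearer to 0 or more variable in *T*. TGFB3 was at 0.03 ± 0.19, TGFBR2 at 0.09 ± 0.29, PMEPA1 at 0.36 ± 0.35 and GREM1 at -0.55 ± 1.05 (log2 fold changes, SE), with adjusted p values from 0.799 to 0.982. For each of these 4 genes 1 of 6 *T* animals was above every control, while 2 were below every control for TGFB3 and 1 for GREM1. The signs of 3 of them turned in a fit to the 16 libraries alone, to -0.18 for TGFB3, -0.23 for TGFBR2 and 0.21 for GREM1. Without 1 animal PMEPA1 ran from 0.07 (without *T* 14) to 0.64 (without *C* 2), TGFB3 from -0.13 to 0.17, TGFBR2 from -0.09 to 0.24 and GREM1 from -2.62 to 0.12.

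The interaction asks whether the testosterone effect differed between the diets, and both edgeR and DESeq2 called 0 of the 8 genes, beside 0.243% of all genes by edgeR and 1.09% by DESeq2. None of the 8 had an unadjusted p under 0.05, beside 13.5% of all genes. For the called genes the log2 interaction was 0.41 ± 0.26 (SE) with an adjusted p of 0.522 for BMP4 (0.21 without *C* 1), and 0.03 ± 0.32 (SE) with an adjusted p of 0.987 for TGFB2. A difference between the diets in the testosterone effect on these genes was therefore not shown. The interaction was -0.35 ± 0.28 for TGFB3, 0.26 ± 0.41 for TGFBR2, 0.21 ± 0.50 for PMEPA1 and 2.74 ± 1.52 for GREM1 (log2 scale, SE), with adjusted p values from 0.449 to 0.924. Without 1 animal the interaction ran from -0.49 to -0.18 for TGFB3 (the latter without *T* 13), from 0.11 (without *T* 16) to 0.46 (without *WSD* 21) for TGFBR2, from -0.056 to 0.50 for PMEPA1 and from 2.07 to 4.81 (without *T* 18) for GREM1. Over the other alternatives it ran from -0.39 to -0.087 for TGFB3 and from 0.033 to 0.41 for TGFBR2. The range was -0.33 to 0.27 for PMEPA1 and 1.76 to 3.19 for GREM1.

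Testosterone under the diet (*T* + *WSD* against *WSD*) and the diet under testosterone (*T* + *WSD* against *T*) gave no calls either. Against *WSD*, edgeR called 0 of the 8 genes beside 0.815% of all genes, DESeq2 called 0 beside 2.62%, and 0 had an unadjusted p under 0.05, beside 19.98% of all genes. BMP4 was at -0.24 ± 0.19 (SE) with an adjusted p of 0.495 and 2 of 6 animals below every *WSD* animal, and TGFB2 was at -0.33 ± 0.23 (SE) with an adjusted p of 0.435 and 0 of 6. For BMP4 the difference of mean log2 CPM was -0.58 within the 8 libraries and -0.04 within the other 16, and its log2 fold change ran from -0.31 to -0.13 without 1 animal and was 0.067 with the mean of the mesothelial markers as a covariate. For TGFB2 both differences were -0.24, and without 1 animal it ran from -0.45 to -0.17. Over the other alternatives the log2 fold change of TGFB2 ran from -0.35 to -0.072. Against *T*, edgeR called 0 of the 8 beside 3.77% of all genes, DESeq2 called 0 beside 6.10%, and TGFB3 was the 1 gene with an unadjusted p under 0.05, beside 25.9% of all genes. TGFB3 was at -0.59 ± 0.20 (SE), with an adjusted p of 0.0692 and 4 of 6 animals below every *T* animal. Its difference of mean log2 CPM was -0.99 within the 8 libraries and -0.37 within the other 16, and without 1 animal its log2 fold change ran from -0.69 to -0.42. Over the other alternatives the log2 fold change of TGFB3 ran from -0.62 to -0.34. BMP4 was at -0.01 ± 0.18 (SE), with an adjusted p of 0.982 and 0 of 6 animals below every *T* animal, and its sign turned to 0.012 with DESeq2's size factors and to 0.026 with upper-quartile normalization.

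**Figure D2:**
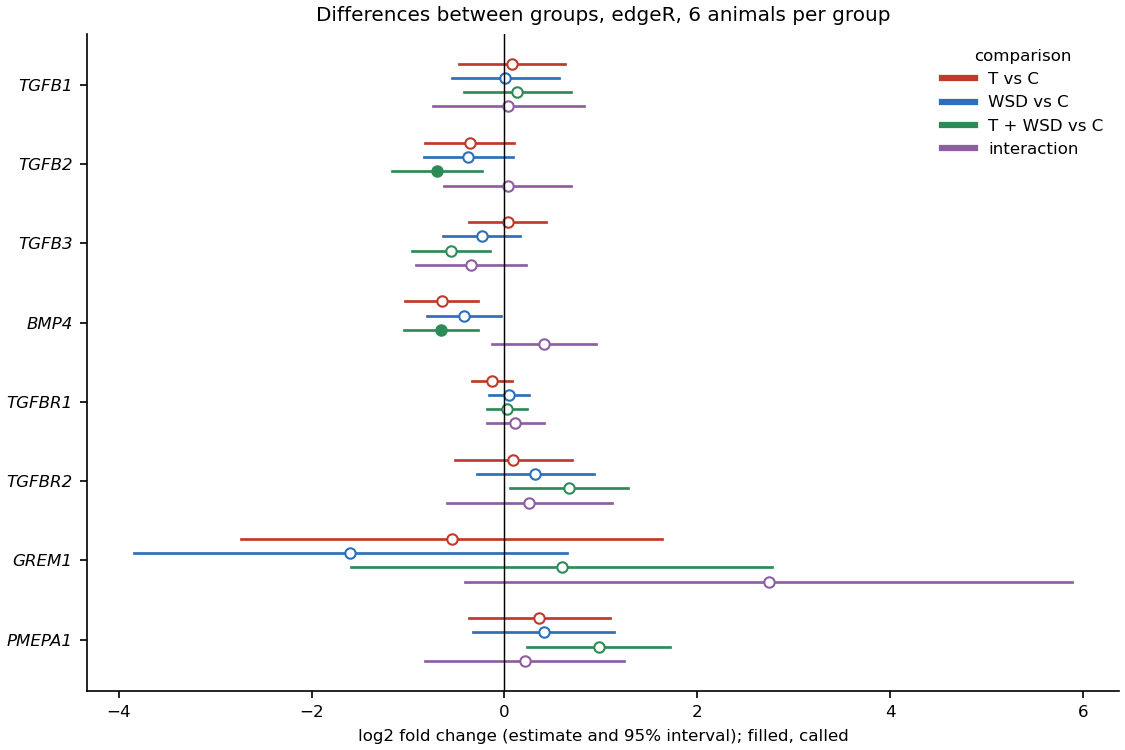
Log2 fold changes of the 8 genes with 95% confidence intervals for *T*, *WSD* and *T* + *WSD* against *C* and for the interaction of testosterone and diet (horizontal axis, log2 scale, 6 animals per group). The filled points were called and are BMP4 at -0.66 and TGFB2 at -0.70 in *T* + *WSD* against *C*.

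The other genes of the pathway were taken from a list of 85 genes by role, of which 74 were found and 65 tested, the other 9 having too few counts. Between *T* + *WSD* and *C* edgeR called 15 of the 65, 7 higher and 8 lower, beside 10.01% of all genes, and DESeq2 called 9 higher and 8 lower, beside 10.9%. Their median log2 fold change was 0.08, beside -0.04 over all genes. In 11 of the 65 the groups did not overlap, 4 above and 7 below *C*, beside 7.61% of all genes. No gene among the 15 changed sign under another scaling.

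The BMP target genes held 4 of the 8 lower calls. ID1, ID2, ID3 and ID4 encode inhibitors of basic helix-loop-helix transcription factors and are direct targets of BMP signals. ID4 had lowest, median and highest levels of 62.5, 80.7 and 233 CPM in *C* and 26.2, 36.8 and 43.8 CPM in *T* + *WSD*, without overlap. The levels of ID2 were 43.9, 81.7 and 163 CPM in *C* and 35.1, 38.1 and 43.2 CPM in *T* + *WSD*, again without overlap. ID3 ran from 91.3 to 216 CPM in *C* (median 126) and from 62.2 to 85.4 CPM in *T* + *WSD* (median 73.1), and these did not overlap. ID1, which ran from 58.9 to 168 CPM in *C* (median 88.5) and from 27.9 to 64.0 CPM in *T* + *WSD* (median 50.3), was the 1 of the 4 whose groups overlapped.

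All 4 ID genes fell in *T* + *WSD* against *C*. ID4 fell by 1.65 ± 0.39 (log2, SE; adjusted p 0.00895; 6 of 6 animals below every control), ID2 by 1.21 ± 0.30 (adjusted p 0.0118; 6 of 6), ID3 by 0.98 ± 0.22 (adjusted p 0.00668; 6 of 6) and ID1 by 1.07 ± 0.31 (adjusted p 0.0209; 4 of 6). HEY1, a transcriptional repressor gene that answers to BMP and Notch, rose by 0.93 ± 0.24 (log2, SE), with an adjusted p of 0.0127. Its levels ran from 5.06 to 7.85 CPM in *C* (median 7.41) and from 10.1 to 15.8 CPM in *T* + *WSD* (median 13.1), with 6 of 6 animals above every control. ATOH8, the remaining gene of the 6, was not called. The median of the 6 BMP targets was -1.03, beside -0.04 over all genes tested. In the same comparison 8 of 10 mesothelial markers were called lower, with a median of -2.51. With the mean of these markers as a covariate 0 of the 6 BMP targets were called, beside 0 of all 15207 genes. With that covariate ID1 was at -0.71, ID2 at -0.17, ID3 at -0.63 and ID4 at -0.33. The marker mean did not overlap between *C* and *T* + *WSD*, so treatment and marker level cannot be told apart in that fit. In the 16 libraries alone 0 of the 6 were called as well, with a median of -0.95.

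Among the 7 other ligand genes tested, 2 were called lower and 0 higher, and their median log2 fold change was -0.17. BMP2, a BMP ligand gene, had lowest, median and highest levels of 32.3, 36.9 and 110 CPM in *C* and 13.6, 17.6 and 19.4 CPM in *T* + *WSD*, without overlap. It fell by 1.54 ± 0.39 (log2, SE), with an adjusted p of 0.0123 and 6 of 6 animals below every control. BMP7, a further BMP ligand gene, had levels of 10.9, 40.3 and 81.8 CPM in *C* and 2.83, 16.9 and 23.2 CPM in *T* + *WSD*, and the groups overlapped. It fell by 1.46 ± 0.47 (log2, SE), with an adjusted p of 0.0362 and 1 of 6 animals below every control.

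Of the 13 other receptor genes, 2 were called higher and 1 lower, with a median of 0.20. BAMBI encodes a decoy receptor without a kinase domain that blocks BMP, activin and TGF-beta signals. Its lowest, median and highest levels were 2.85, 4.45 and 12.99 CPM in *C* and 0.597, 1.15 and 2.28 CPM in *T* + *WSD*, and the groups did not overlap. It fell by 2.13 ± 0.52 (log2, SE), with an adjusted p of 0.0105 and 6 of 6 animals below every control. BAMBI had few counts, 1469 over the 24 animals together.

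The receptor genes that rose, ACVRL1 and ENG, encode a type I receptor and a coreceptor best known from endothelial cells. ACVRL1 ran from 30.7 to 82.0 CPM in *C* (median 64.0) and from 79.5 to 110 CPM in *T* + *WSD* (median 93.3), with 1 *T* + *WSD* animal inside the range of *C*. It rose by 0.62 ± 0.19 (log2, SE), with an adjusted p of 0.0307 and 5 of 6 animals above every control. ENG ran from 27.8 to 103 CPM in *C* (median 67.6) and from 84.4 to 119 CPM in *T* + *WSD*, with wide overlap. It rose by 0.59 ± 0.20 (log2, SE), with an adjusted p of 0.0487 and 2 of 6 animals above every control. The endothelial markers moved with them. Of 6 endothelial markers 5 were called higher, and their summed level was 783 to 1534 CPM in *C* and 1671 to 2619 CPM in *T* + *WSD*, with VWF the largest and none at 0. Their part in the rise of ACVRL1 and ENG was not tested.

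Of the 12 SMAD genes and regulators, 1 was called higher and 0 lower, with a median of -0.06. At an unadjusted p under 0.05, 2 were higher and 2 lower, beside 32.1% of all genes. Without overlap, 1 lay above *C* and 2 below, beside 7.61% of all genes. The smallest adjusted p of the 12, 0.0109, was in a gene that was not called. SMAD3, which carries TGF-beta and activin signals, had lowest, median and highest levels of 10.1, 18.9 and 22.96 CPM in *C* and 24.03, 29.3 and 35.9 CPM in *T* + *WSD*, without overlap. It rose by 0.75 ± 0.21 (log2, SE), with an adjusted p of 0.0169 and 6 of 6 animals above every control.

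Of the 11 genes of TGF-beta latency and activation, 2 were called higher and 0 lower, with a median of 0.30. THBS1 encodes thrombospondin 1, which can release TGF-beta from its latent form, and its levels were 117, 151 and 192 CPM in *C* and 229, 322 and 563 CPM in *T* + *WSD*, without overlap. It rose by 1.22 ± 0.36 (log2, SE), with an adjusted p of 0.0235 and 6 of 6 animals above every control. ITGB5, an integrin subunit gene, ran from 86.2 to 198 CPM in *C* (median 103) and from 144 to 259 CPM in *T* + *WSD* (median 191), and the groups overlapped. It rose by 0.71 ± 0.20 (log2, SE), with an adjusted p of 0.0206 and 2 of 6 animals above every control.

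Of the 8 extracellular inhibitor genes tested beside GREM1, edgeR called 0, with a median of 0.30. At an unadjusted p under 0.05, 2 were higher, and DESeq2 called 2. These were CHRDL1, a BMP antagonist gene with a log2 fold change of 0.95 ± 0.33 (SE; adjusted p 0.0517; 5 of 6 animals above every control), and HTRA1, a secreted protease gene at 0.61 ± 0.24 (SE; adjusted p 0.0787; 5 of 6). By DESeq2 the adjusted p was 0.0248 for CHRDL1 and 0.0495 for HTRA1. edgeR also called CHRDL1 under 5 other settings: DESeq2's size factors (adjusted p 0.0483), upper-quartile normalization (0.0458), at least 10 counts in every animal (0.0449), legacy=FALSE (0.0459) and only the groups compared (0.0367). CHRDL1 was called without *C* 2 (adjusted p 0.0479) or *C* 6 (0.0311), and HTRA1 without *C* 1 (0.0483) or *C* 6 (0.0400). Over all alternatives the adjusted p ran from 0.0248 to 0.9995 for CHRDL1 and from 0.0400 to 0.9995 for HTRA1. The log2 fold change ran from 0.15 (with the mean of the mesothelial markers as a covariate) to 1.12 for CHRDL1 and from 0.48 to 0.77 for HTRA1, which was at 0.62 with that covariate.

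Of the 8 TGF-beta targets on the list, 1 was called higher and 1 lower, with a median of -0.18. POSTN, the gene of the matrix protein periostin, had lowest, median and highest levels of 226, 398 and 1081 CPM in *C* and 40.7, 91.1 and 283 CPM in *T* + *WSD*. It fell by 2.19 ± 0.56 (log2, SE), with an adjusted p of 0.0121 and 5 of 6 animals below every control. TAGLN, an actin-binding protein gene that is also on the list of smooth muscle markers, had levels of 295, 343 and 381 CPM in *C* and 549, 625 and 1012 CPM in *T* + *WSD*, without overlap. It rose by 1.05 ± 0.27 (log2, SE), with an adjusted p of 0.0121 and 6 of 6 animals above every control. The 2 targets thus moved in opposite directions, and PMEPA1, a further TGF-beta target, was called by DESeq2 and not by edgeR.

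**Figure D3:**
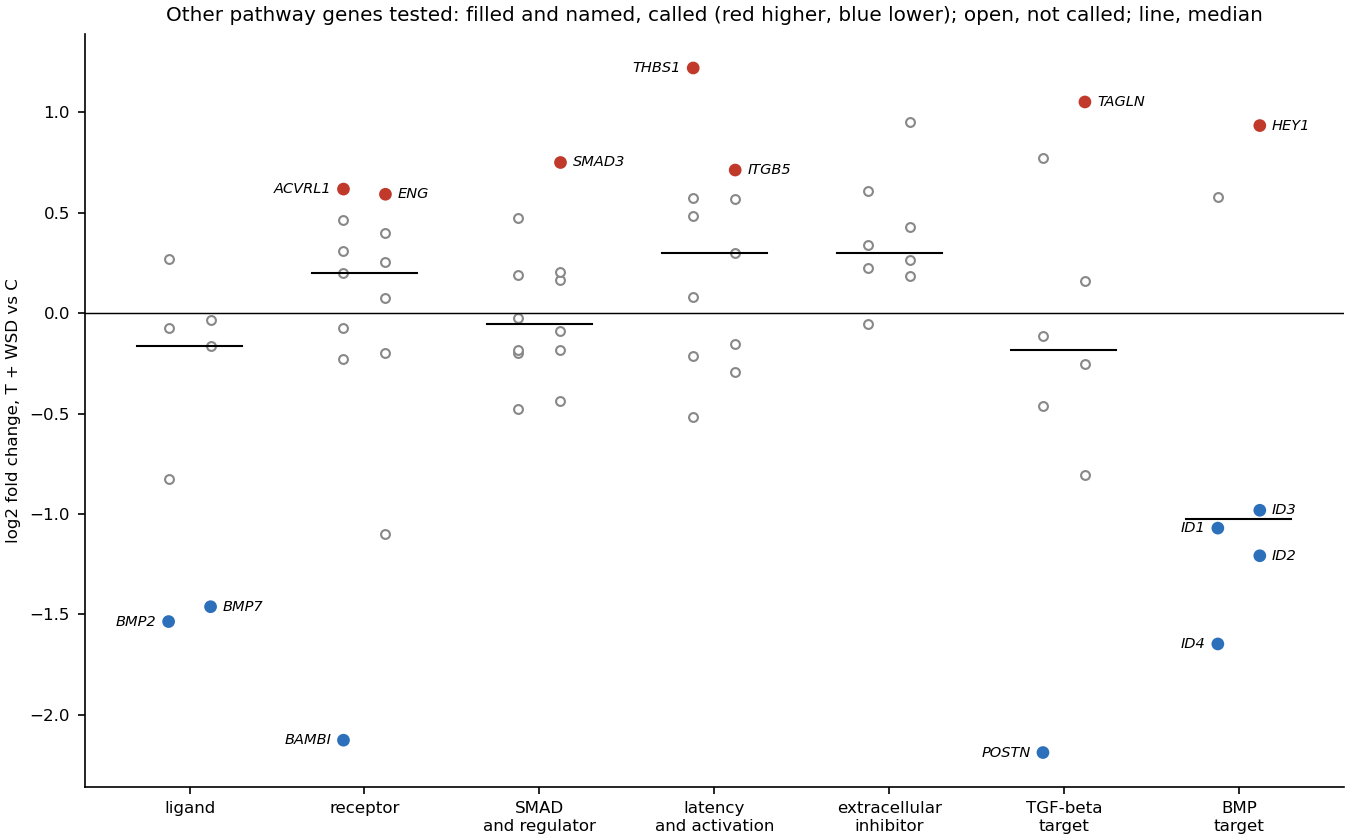
Log2 fold changes in *T* + *WSD* against *C* (vertical axis) of the 65 tested pathway genes by role, 1 point per gene, with filled and named points called and lines at the median of each role. The 4 ID genes lie between -1.65 and -0.98, POSTN at -2.19 and BAMBI at -2.13, and THBS1 at 1.22 is the highest.

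Of the 15 called pathway genes, 9 (BAMBI, BMP2, HEY1, ID2, ID3, ID4, POSTN, SMAD3 and TAGLN) were called in each of the 12 fits that left out 1 animal, and 6 were not. ITGB5 was not called without *C* 1 or *C* 3 (adjusted p 0.0517 to 0.0527), ID1 without *C* 1, *C* 3 or *T* + *WSD* 9 (0.0505 to 0.0726), and THBS1 without *C* 1, *C* 3 or *T* + *WSD* 12 (0.0551 to 0.0563). ACVRL1 was not called without *C* 1, *C* 3 or *T* + *WSD* 7, 8 or 9 (adjusted p 0.0535 to 0.0681). BMP7 was not called without *C* 1, 3, 5 or 6 or *T* + *WSD* 7, 8, 9 or 10 (adjusted p 0.0526 to 0.0827). ENG was not called without *C* 1, 2, 3 or 6 or any 1 of the 6 *T* + *WSD* animals (adjusted p 0.0520 to 0.108).

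In the single treatments edgeR called 0 of the 65 pathway genes. In *WSD* against *C* 4 were higher and 8 lower at an unadjusted p under 0.05, beside 18.5% of all genes, and the smallest adjusted p was 0.134. DESeq2 called 2 of the 65 there, beside 1.58% of the genes to which it gave an adjusted p, both lower. These were ID3 (-0.73, adjusted p 0.0420) and ID4 (-1.29, adjusted p 0.0382), with 3 and 4 of 6 animals below every control. In the same comparison 6 of 10 mesothelial markers were lower (median of the 10 -1.01) at an unadjusted p under 0.05. At that threshold 4 of 6 endothelial markers were higher, while edgeR and DESeq2 called 0 of either list. With the mesothelial mean as a covariate, edgeR again called 0 of the 6 BMP targets, with a median of -0.56, beside -0.69 without it. Over all alternatives the adjusted p ran from 0.0420 to 0.482 for ID3 and from 0.0382 to 0.505 for ID4. The part of the endothelial markers was not tested for these ID calls. In *T* against *C* 6 were higher and 2 lower at an unadjusted p under 0.05, beside 8.63% of all genes, the smallest adjusted p was 0.529, and DESeq2 called 0. For the interaction edgeR and DESeq2 called 0, with 2 higher and 0 lower at an unadjusted p under 0.05, beside 13.5% of all genes. The log2 interaction of the ID genes was -0.07 ± 0.43 for ID1, 0.28 ± 0.42 for ID2, 0.24 ± 0.31 for ID3 and 0.42 ± 0.54 for ID4 (SE), with adjusted p values from 0.812 to 0.977. For TAGLN it was 1.03 ± 0.37 (SE), with an adjusted p of 0.223, the smallest among the pathway genes.

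The diet under testosterone was the other comparison in which edgeR, in the fit used throughout, called pathway genes. Between *T* + *WSD* and *T* 3 of the 65 were called higher and 1 lower, beside 3.77% of all genes. SMAD3 rose by 0.77 ± 0.21 (log2, SE; adjusted p 0.0316), HTRA1 by 0.94 ± 0.24 (adjusted p 0.0261) and TAGLN by 1.05 ± 0.27 (adjusted p 0.0261), each with 6 of 6 animals above every *T* animal. Of all 15207 genes tested, 455 were without overlap above *T* and 472 below in this comparison. BMP2 fell by 1.56 ± 0.39 (log2, SE; adjusted p 0.0250), with 3 of 6 animals below every *T* animal. Of the mesothelial markers 6 of 10 were called lower in the same comparison, with a median of -2.06. With the mesothelial mean as a covariate 0 of the 65 were called, beside 0 of all 15207 genes. The log2 fold changes with it were -0.36 for BMP2 (adjusted p 0.888), 0.30 for SMAD3 (0.815), 0.95 for HTRA1 (0.470) and 1.28 for TAGLN (0.406). The marker mean was lower in every *T* + *WSD* animal (2.95 to 5.68 on the log2 scale) than in every *T* animal (6.06 to 7.48). The diet and the marker level therefore cannot be told apart in that fit. In the 16 libraries alone TAGLN and BMP2 were called, whereas SMAD3 (0.81, adjusted p 0.0718) and HTRA1 (0.96, adjusted p 0.0870) were not.

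Testosterone under the diet, *T* + *WSD* against *WSD*, gave 0 calls by edgeR, with 3 higher and 6 lower at an unadjusted p under 0.05, beside 19.98% of all genes. TAGLN was at 1.02 ± 0.27 (log2, SE; adjusted p 0.0502), with 5 of 6 animals above every *WSD* animal. DESeq2 called it (adjusted p 0.00780), as the 1 of the 65 beside 2.62% of the genes to which it gave an adjusted p, and so did edgeR with DESeq2's size factors (0.0473), upper-quartile normalization (0.0478), at least 10 counts in every animal (0.0391) or legacy=FALSE (0.0420). It was also called in 5 of the fits without 1 animal (*C* 1, *T* 16, *WSD* 19, 22 or 23). Over all alternatives its adjusted p ran from 0.00780 to 0.273.

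The calls against *T* rested on single animals in part. BMP2 was not called without *T* 18 or *T* + *WSD* 8 (adjusted p 0.0541 to 0.0609), and HTRA1 without *T* 16 or *T* + *WSD* 8, 9 or 10 (0.0502 to 0.0567). TAGLN was not called without *T* 16 or 18 or *T* + *WSD* 8 or 10 (0.0543 to 0.0657). SMAD3 was not called without *T* 13, 15, 16, 17 or 18 or *T* + *WSD* 7, 8, 9, 10 or 12 (0.05005 to 0.0688).

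Markers of mesothelium, the layer that covers the omentum, moved with these genes. Of 12 mesothelial markers 10 were found, and 8 of the 10 were called lower in *T* + *WSD* against *C*, with a median log2 fold change of -2.51. Their summed level had lowest, median and highest values of 2729, 7599 and 39066 CPM in *C*, 2825, 3984 and 17684 CPM in *T*, 715, 4516 and 5996 CPM in *WSD*, and 238, 988 and 3091 CPM in *T* + *WSD*. *C* 1, the highest animal for BMP4 and TGFB2 and the lowest for TGFBR2 and PMEPA1, was the highest for the summed markers. It was also the lowest of the 24 animals for the summed adipocyte (3343 CPM), endothelial (783 CPM) and macrophage markers (171 CPM). *T* 18, second to *C* 1 in the summed markers at 17684 CPM, had the lowest BMP4 of all animals at 21.3 CPM. The part of the mesothelial markers in these results was looked at only with their mean as a covariate, which was no test of cause. The largest marker in the sum was ITLN1, which made up 73.8% to 80.6% of it by group, and no marker was at 0 in any animal. In bulk tissue, fewer cells of a type and less RNA per cell cannot be told apart.

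**Figure D4:**
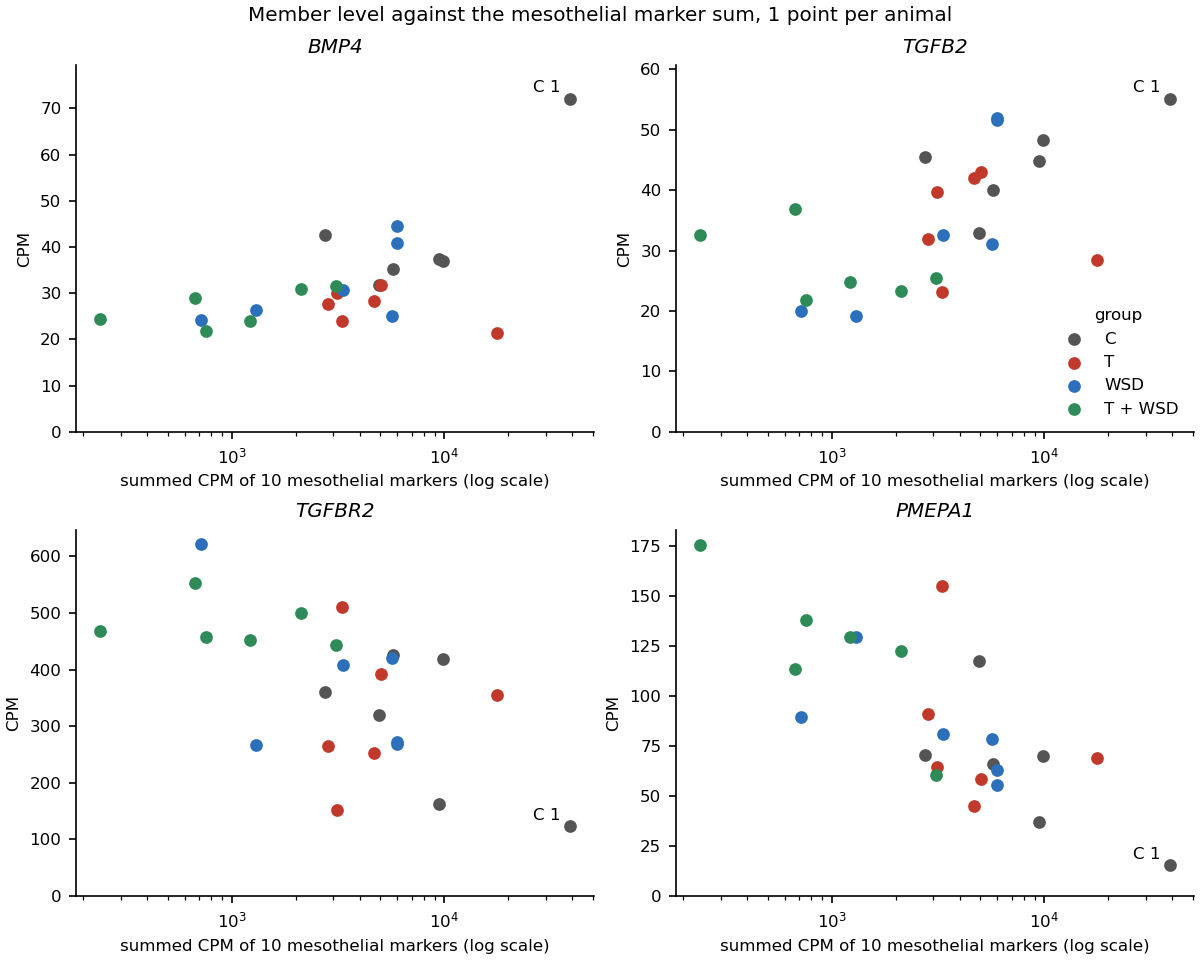
CPM of BMP4, TGFB2, TGFBR2 and PMEPA1 (vertical axes) against the summed CPM of 10 mesothelial markers (horizontal log axis), 1 point per animal, by group. *C* 1, labelled at 39066 CPM of markers, has the highest BMP4 at 72.1 CPM and the lowest PMEPA1 at 15.6 CPM.

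With the mean log2 CPM of the 10 mesothelial markers in the fit as a covariate, 0 of the 8 genes and 0 of the 65 pathway genes were called in *T* + *WSD* against *C*. The smallest adjusted p over all genes was then 0.390. The log2 fold change was -0.16 ± 0.24 (SE) for BMP4, -0.34 ± 0.34 (SE) for TGFB2, -0.32 ± 0.29 (SE) for TGFB3 and 0.03 ± 0.47 (SE) for PMEPA1. It was 0.20 ± 0.41 (SE) for TGFBR2 and 1.68 ± 1.99 (SE) for GREM1. The ID genes were at -0.71 (ID1), -0.17 (ID2), -0.63 (ID3) and -0.33 (ID4). The median of the 6 BMP targets was -0.48 with the covariate, beside -1.03 without it. Of the other called genes BMP2 was at -0.08, BMP7 at -0.67, BAMBI at -0.16, POSTN at -0.97, HEY1 at 0.54, SMAD3 at 0.21, ACVRL1 at 0.30, ENG at 0.20, ITGB5 at 0.36, THBS1 at 0.96 and TAGLN at 1.32. The marker mean was lower in every *T* + *WSD* animal (2.95 to 5.68 on the log2 scale) than in every *C* animal (6.37 to 8.14), so the treatment and the marker level cannot be told apart in these fits.

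The other cell types were counted in the same way in *T* + *WSD* against *C*. Of 8 adipocyte markers 2 were called higher (LEP and FABP4), with summed levels of 3343 to 19952 CPM in *C* and 18878 to 30026 CPM in *T* + *WSD*. Of 7 smooth muscle and pericyte markers 2 were called higher (TAGLN and RGS5), with sums of 685 to 1444 CPM and 1260 to 1746 CPM and TAGLN the largest. Of 8 fibroblast markers 1 was called higher (DPT), with sums of 8083 to 24937 CPM and 7298 to 16427 CPM and COL3A1 the largest. edgeR and DESeq2 called 0 of 6 macrophage markers (sums of 171 to 1007 CPM and 455 to 839 CPM, CSF1R the largest) and 0 of 3 T and NK cell markers found of 6 (NKG7 the largest, with 1 marker at 0 in 1 *T* + *WSD* animal), and 0 of these markers had an unadjusted p under 0.05. The lists are not separate, since COL1A1, COL1A2 and DCN are on the pathway and fibroblast lists and TAGLN and ACTA2 on the pathway and smooth muscle lists.

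In a fit to the 16 libraries alone, with 4 animals per group, edgeR called 0 of the 8 genes and 0 of the 65 pathway genes in *T* + *WSD* against *C*, and 78 genes in all. The log2 fold changes were -0.68 for TGFB2 (adjusted p 0.125) and 0.83 ± 0.25 (SE) for PMEPA1 (adjusted p 0.0937). Those of the ID genes were -0.98 for ID1, -0.97 for ID2, -0.93 for ID3 and -1.36 for ID4. ACVRL1 was at 0.34 and ENG at 0.34, beside 0.62 and 0.59 in all 24 animals, BMP2 at -1.13 and BAMBI at -1.53, beside -1.54 and -2.13. The others of the 15 were BMP7 at -1.46, POSTN at -1.95, SMAD3 at 0.61, ITGB5 at 0.52, HEY1 at 0.84, TAGLN at 1.03 and THBS1 at 1.42. The median of the 6 BMP targets was -0.95 in these libraries.

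**Figure D5:**
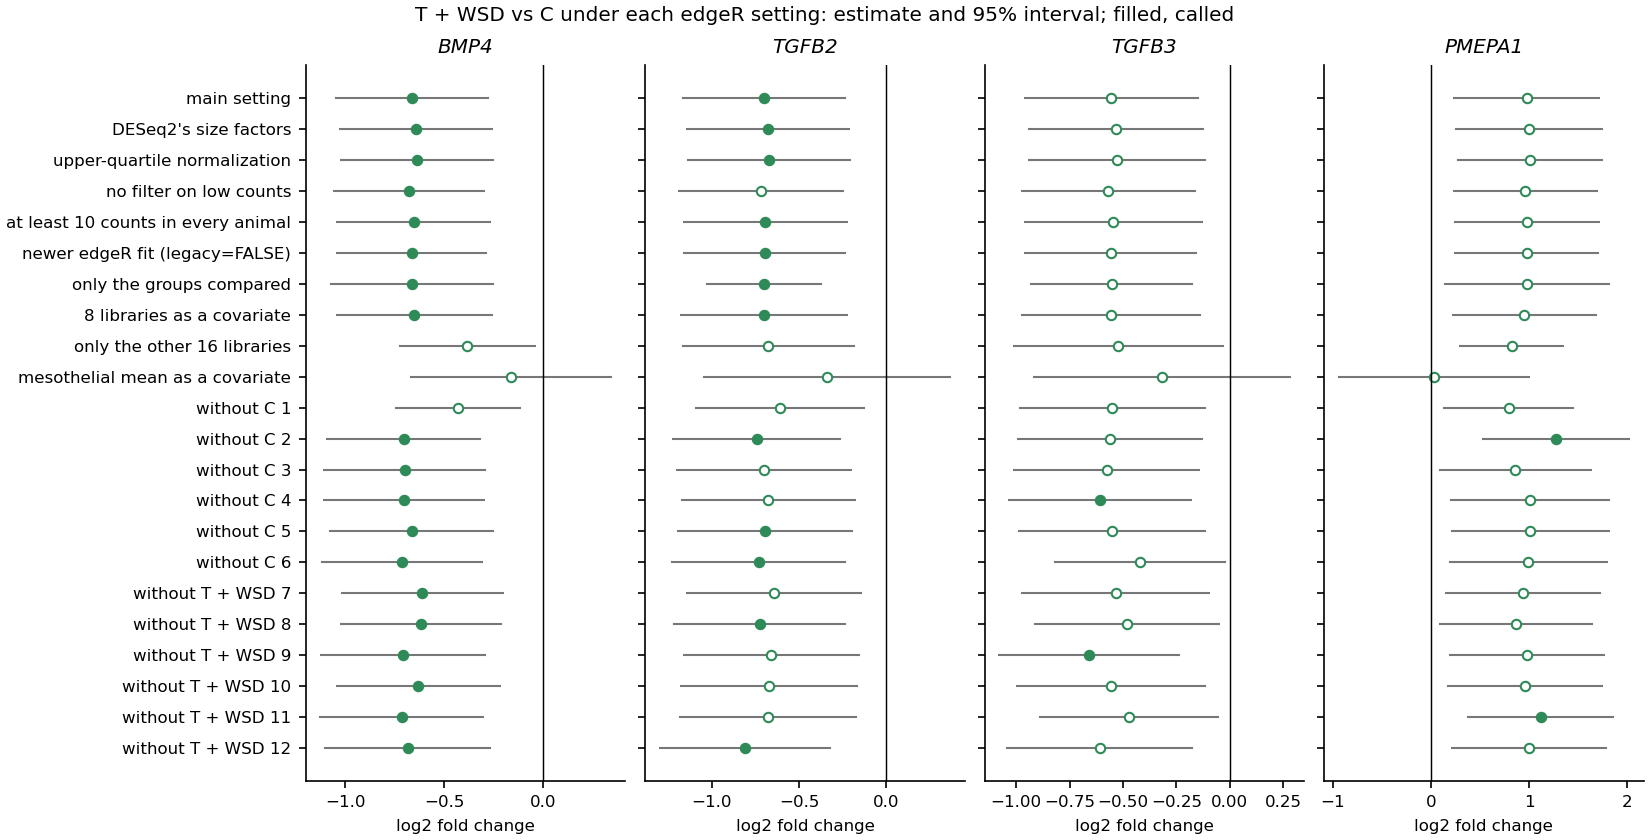
Log2 fold changes in *T* + *WSD* against *C* with 95% confidence intervals for BMP4, TGFB2, TGFB3 and PMEPA1 (horizontal axis) under each edgeR setting (vertical axis), with filled points called. With the mesothelial covariate BMP4 lies at -0.16 and PMEPA1 at 0.03.

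Across the 24 animals BMP4 and TGFB2 went together, with a Pearson r of log2 CPM of 0.764, and BMP4 and PMEPA1 went in opposite directions, with an r of -0.759. Among 12362 genes with a symbol, those most like BMP4 were DOCK5 (r of 0.828), GALNT18 (0.825) and TGIF1 (0.824). Those most like TGFB2 were RASSF8 (0.872), SMURF2 (0.863) and TLCD5 (0.849). The values describe the same 24 animals, which share the 4 groups, the normalization and the 8 libraries, and carry no test.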

How the data were processed

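RNA-seq was done on omental WAT of 24 animals, 6 per group, with ribosomal RNA removed and single reads. The authors trimmed reads (Trimmomatic 0.36), aligned them to rheMac8 (STAR 2.5.2b) and deposited unnormalized raw counts by gene. The counting tool, its strand setting and the annotation release behind the counts are not given in the sources used here. The supplement of the study names an Ensembl release for annotating its methylated regions, not for the counts. Totals ran from 6899185 to 28270776 counts (median 20630512.5), and no 2 libraries of a group were identical.

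Symbols came from a table of gene names or, for 230 identifiers, from the supplementary tables of the study. Counts were TMM-normalized, filtered (filterByExpr, minimum count 10, minimum total 15) and tested in R 4.3.3 with edgeR 4.0.16 (quasi-likelihood F-test, robust=TRUE, legacy=TRUE), two-sided, with Benjamini-Hochberg adjustment over 15207 genes. Adjusted p values are from edgeR unless DESeq2 is named. Intervals are 95% confidence intervals. Log2 CPM used a prior count of 2. The pipeline was tested on simulated data.

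Members and lists were chosen with earlier results of these data known. Named genes are the 10 members, each pathway gene called in any comparison, the pathway gene with the largest change per role, and the 3 genes most like each called member. Alternatives were DESeq2 1.42.0, DESeq2's size factors or upper-quartile normalization, no filter, at least 10 counts in every animal, legacy=FALSE, only the groups compared, no fold-change threshold, an adjusted p under 0.1 without it, the 8 libraries as a covariate or left out, the mesothelial mean as a covariate, and each animal left out in turn. Methylation data were not used here.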

Additional observations from a re-analysis of the deposited data

Results flagged for a closer look

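In a group of 6 animals, an animal was looked at more closely when its gap to the nearest other animal took an unusually large share of the range of the group on the log2 CPM scale. Of 32 groups (8 genes in 4 groups) 2 met this, and chance gives about 1 in 20. For BMP4 in *C* the highest animal was *C* 1, with a gap of 0.643 of the range. *C* 1 also had the most mesothelial marker CPM and the lowest summed CPM of adipocyte, endothelial and macrophage markers, and BMP4 was not called in *T* + *WSD* against *C* without it (log2 fold change -0.43, adjusted p 0.0717). For TGFB3 in *C* the highest animal was *C* 6, with a gap of 0.635 of the range. The cause was not tested in either.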

How the results depend on the processing

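Limits. Each group had 6 animals, and omental WAT is a mixture of cells. The mean log2 CPM of the mesothelial markers differed without overlap between *C* and *T* + *WSD* and between *T* and *T* + *WSD*. INHBA and INHBB had no identifier here. The cause of the differences between groups was not tested, nor why a result moved from one setting to another.

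Genes of the 8 called in *T* + *WSD* against *C* numbered 2, and 1 with no filter, 0 with the 16 libraries alone, 0 with the mesothelial covariate and 4 at an adjusted p under 0.1. Against *T* they numbered 0, and 1 at an adjusted p under 0.1. Over the fits without 1 animal they ran from 0 to 3 in *T* + *WSD* against *C* and from 0 to 0 in the other comparisons. The pathway list gave 15 calls, and 0 with the 16 libraries and 0 with the mesothelial covariate (9 to 16 without 1 animal, 9 without *C* 3). The mesothelial list gave 8, and 0 with the 16 libraries, where its median log2 fold change was still -1.87 (8 to 8 without 1 animal). Its fit with the covariate is no test, since the covariate is the mean of the same markers.

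All genes called in *T* + *WSD* against *C* numbered 1522, and 78 with the 16 libraries, 0 with the mesothelial covariate, 2603 with no fold-change threshold and 3865 at an adjusted p under 0.1 (900 to 1790 without 1 animal). In *WSD* against *C* they numbered 0, and 1 with legacy=FALSE, 1 with only the groups compared, 1 with the 8 libraries as a covariate, 238 by DESeq2 and 18 at an adjusted p under 0.1 (0 to 59 without 1 animal). In *T* against *C* they numbered 0, and 1 with at least 10 counts in every animal, 7 by DESeq2 and 3 at an adjusted p under 0.1 (0 to 1).

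Calls in *T* + *WSD* against *WSD* numbered 124, and 68 with no filter, 46 with only the groups compared, 0 with the 16 libraries, 1 with the mesothelial covariate, 431 by DESeq2, 254 with no fold-change threshold and 946 at an adjusted p under 0.1 (9 to 448). Against *T* they numbered 574, and 1059 with only the groups compared, 308 with the 16 libraries, 0 with the mesothelial covariate, 1090 by DESeq2, 988 with no fold-change threshold and 2093 at an adjusted p under 0.1 (238 to 738). For the interaction they numbered 37, and 7 with no filter, 0 with the 16 libraries, 19 with the mesothelial covariate, 174 by DESeq2 and 123 at an adjusted p under 0.1 (11 to 96).

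Signs of log2 fold changes that were not called turned as follows. With the mesothelial covariate TGFB1 in *T* + *WSD* against *C* was at -0.013, BMP4 in *T* + *WSD* against *WSD* at 0.067 and PMEPA1 for the interaction at -0.33. With the 16 libraries TGFB3, TGFBR2 and GREM1 in *T* against *C* were at -0.18, -0.23 and 0.21. BMP4 in *T* + *WSD* against *T* was at 0.012 with DESeq2's size factors, 0.026 with upper-quartile normalization, 0.013 with at least 10 counts in every animal, 0.016 with only the groups compared, 0.073 with the 16 libraries, 0.38 with the mesothelial covariate and 0.011 by DESeq2. TGFB2 for the interaction was at -0.012 with no filter.

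Without 1 animal, TGFBR1 in *T* + *WSD* against *C* ran from -0.013 to 0.091 and BMP4 in *T* + *WSD* against *T* from -0.074 to 0.042. In *T* against *C* TGFB3 ran from -0.13 to 0.17, TGFBR2 from -0.090 to 0.24 and GREM1 from -2.62 to 0.12. For the interaction TGFB2 ran from -0.090 to 0.19, PMEPA1 from -0.056 to 0.50, TGFB3 from -0.49 to -0.18, TGFBR2 from 0.11 to 0.46 and GREM1 from 2.07 to 4.81. For *T* + *WSD* against *C*, BMP4 ran from -0.71 to -0.43, TGFB2 from -0.81 to -0.61, TGFB3 from -0.66 to -0.42, PMEPA1 from 0.79 to 1.27, TGFBR2 from 0.53 to 0.79, GREM1 from 0.15 to 1.26 and TGFB1 from 0.01 to 0.26.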
